A study of Mus musculus with 7 samples.

Results

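The 4 microRNAs (miRNAs) miR-101a, miR-101b, miR-26a and miR-26b were followed in whole kidneys of male C57BL/6 mice 28 days after ureteral obstruction or a sham operation, because miR-101 and miR-26 are known repressors of Ezh2, the histone methyltransferase of the Polycomb group. They were chosen by their names on the array (mmu-miR-101a, mmu-miR-101b, mmu-miR-26a and mmu-miR-26b), and were 4 of the 696 mouse miRNAs and 8 of the 1937 miRNA probes that the array held. The 4 miRNAs did not change by the same amount, and their signs depended on the scaling between arrays. Scaled to the mean of the detected miRNAs, miR-101a was higher on arrays labelled treated (log2 change of 0.66 ± 0.071 (SE), n = 3 against 4) and miR-26a lower (−0.39 ± 0.084). On the same scale, miR-101b (−0.15 ± 0.10) and miR-26b (0.19 ± 0.087) did not pass the test. These directions follow the deposited labels, which give miR-101a, and every other miRNA of the study's list of changed miRNAs that was matched here by name, the opposite sign to that list. The change of miR-101a turned negative without scaling between arrays, and those of miR-101b and miR-26b turned sign under several scalings. The change of miR-26a was negative under each of the 7 scalings computed. The scale of the study's list is not among these 7, since the list gives miR-101a a change larger in size than any of them. The list does not hold miR-26a, miR-101b or miR-26b, and holds only changes larger in size than those given here for the 4. For most matched miRNAs, the list with its sign turned lies above the changes given here by about the same shift. That shift is larger in size than the change of miR-26a. If it held for all 4, each would be higher on arrays labelled treated on the list's scale. Whether it holds for the 3 that the list lacks was not tested. The call of miR-101a was lost with the mean of all miRNAs or the spike-in probes as the scale. The call of miR-26a was lost with the 75th percentile over the whole array, without treated replicate 1 or 4, and with the replicate number as a block.

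The samples were kidneys of male C57BL/6 mice aged 9 to 12 weeks, collected at day 28 after an operation under pentobarbital (50 mg/kg). The operation was either unilateral ureteral obstruction (UUO), in which the left ureter is tied and the kidney becomes fibrotic, or a sham procedure without the tie. Of the 7 arrays, 3 were labelled treated (replicates 1, 3 and 4, S numbers) and 4 were labelled non-treated (replicates 1 to 4, C numbers), and a treated replicate 2 was not analysed here. The labels do not say which of these names stands for the obstructed kidney, and the record's title names sham kidneys, so every direction given is that of the deposited label. The study itself compared obstructed with sham kidneys. The signs of its list are those that would result if the arrays labelled non-treated were its obstructed kidneys. The label treated should therefore not be read as obstructed. The study describes its groups as separate mice, while the labels tie no array to an animal, and the p-values measure the spread between these samples.

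A miRNA guides the silencing complex to messenger RNAs that pair with its seed, the bases near its 5′ end, and lowers the stability or translation of those messengers. Ezh2 is the catalytic subunit of Polycomb repressive complex 2, which methylates histone H3 at lysine 27 and keeps genes silent, and both miR-101 and miR-26 are known to bind its messenger RNA. In many tumours, loss of miR-101 goes with high EZH2. miR-26 is widely expressed in differentiated tissues and lies in introns of the Ctdsp genes, which encode phosphatases of the RNA polymerase II tail.

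The mature sequences of the 4 miRNAs are shown because the a and b copies of each family differ in few bases, and copies that share a seed are expected to recognise the same messengers. They were taken from RefSeq on build GRCm38.p6, are written 5′ to 3′, and carry bases 2 to 8 in capitals. The array names give no arm, so miR-101a and miR-101b were taken as the 3p strand and miR-26a and miR-26b as the 5p strand, the strands that carried the name without a star.
miR-101a: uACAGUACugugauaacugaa
miR-101b: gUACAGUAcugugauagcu
miR-26a: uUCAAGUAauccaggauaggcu
miR-26b: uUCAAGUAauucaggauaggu

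miR-101a lies at chr4:101346957-101346977 on the minus strand, within the span of the long non-coding RNA gene E130102H24Rik. miR-101b lies at chr19:29135338-29135356 on the plus strand, within the span of Rcl1, a gene of ribosome biogenesis. The RefSeq entry of miR-101b starts 1 base earlier than that of miR-101a, so that its bases 2 to 8 read UACAGUA rather than ACAGUAC. Over the 18 bases that both entries share, 17 were identical and the difference was A16G, counted from the 5′ end of miR-101a with the base of miR-101a first. miR-26b lies at chr1:74394324-74394344 on the plus strand within Ctdsp1. miR-26a and miR-26b have the same bases 2 to 8, and 19 of 21 aligned bases were identical, with the differences C11U and C21U counted from the 5′ end of miR-26a. How far a probe of either copy also reads the other was not tested, since the probe sequences were not used here.

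The same mature miR-26a is made from 2 genes, Mir26a-1 within Ctdspl at chr9:119031811-119031832 and Mir26a-2 within Ctdsp2 at chr10:126995543-126995564, both on the plus strand. Their hairpins are shown, with the mature strand in capitals, because the array signal of miR-26a is the sum of both loci and cannot be divided between them.
Mir26a-1: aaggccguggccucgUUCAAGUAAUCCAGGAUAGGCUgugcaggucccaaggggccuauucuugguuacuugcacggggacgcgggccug
Mir26a-2: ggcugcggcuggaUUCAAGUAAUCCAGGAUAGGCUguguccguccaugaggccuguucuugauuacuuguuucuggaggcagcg

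All 7 arrays lay on the same slide and were scanned together. Between 232 and 282 miRNAs were detected on arrays labelled non-treated and between 193 and 214 on arrays labelled treated. Each array was scaled by the mean log2 signal of those miRNAs that all 7 arrays detected, 186 in number, and this mean was 7.24 ± 0.40 (SD, n = 4) on arrays labelled non-treated and 6.09 ± 0.32 (n = 3) on arrays labelled treated. The mean of 29 positive control probes, here called spike-in probes, was also higher on arrays labelled non-treated, at 11.79 ± 0.34 against 11.16 ± 0.27. These probes were picked by control type and brightness and not by name. Whether each reads RNA added in known amounts was not checked. Non-treated replicate 3 stood apart from its group in both measures. After scaling, the median of the 236 miRNAs tested changed by −0.13, and each change is also given relative to that median.

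Before any scaling, the summed probe intensity of miR-101a was 338, 384, 214 and 349 on non-treated replicates 1 to 4, and 214, 284 and 182 on treated replicates 1, 3 and 4. Unscaled, the groups overlapped, since non-treated replicate 3 lay within the range of the arrays labelled treated. Scaled to the mean of the detected miRNAs, the log2 signal was 7.75, 7.81, 7.84 and 7.79 on arrays labelled non-treated and 8.44, 8.47 and 8.47 on arrays labelled treated. Each array labelled treated now lay above each array labelled non-treated, and the smallest gap between the groups was 0.60. The mean rose from 7.80 ± 0.038 (SD, n = 4) to 8.46 ± 0.017 (n = 3), or 1.58-fold, with a 95% interval of the log2 change from 0.50 to 0.82 and limma adjusted p = 4.85e-05. In whole kidney, fewer cells of a type and less RNA per cell cannot be told apart. Under the scalings listed further on, this change ran from −0.49 without scaling to 0.91.

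miR-101b was the dimmest of the 4 in signal, with summed intensities of 38.6, 50.6, 26.9 and 47.4 on arrays labelled non-treated and 15.7, 21.6 and 12.2 on arrays labelled treated. Its scaled log2 signal was 4.62, 4.89, 4.84 and 4.91 on arrays labelled non-treated and 4.67, 4.76 and 4.57 on arrays labelled treated. The groups overlapped, because non-treated replicate 1 was as low as the arrays labelled treated. The mean was 4.82 ± 0.13 (SD, n = 4) against 4.67 ± 0.096 (n = 3). The log2 change of −0.15 did not pass the test (limma adjusted p = 0.215), and its 95% interval from −0.38 to 0.080 holds both a fall and a small rise.

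miR-26a gave summed intensities of 3105, 3613, 1795 and 3056 on arrays labelled non-treated and 861, 1266 and 811 on arrays labelled treated. Its scaled log2 signal was 10.95, 11.05, 10.91 and 10.92 on arrays labelled non-treated and 10.45, 10.63 and 10.62 on arrays labelled treated. The groups did not overlap with or without scaling, and the lowest array was treated replicate 4 before scaling and treated replicate 1 after it. The scaled mean fell from 10.96 ± 0.064 (SD, n = 4) to 10.57 ± 0.10 (n = 3), a level 1.31 times higher on arrays labelled non-treated, with a 95% interval of the log2 change from −0.58 to −0.20 and limma adjusted p = 0.00303. The call was lost without treated replicate 1 (−0.33, adjusted p = 0.0165) and without treated replicate 4 (−0.39, adjusted p = 0.0118).

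miR-26b gave summed intensities of 809, 1006, 495 and 893 on arrays labelled non-treated and 387, 534 and 303 on arrays labelled treated. Its scaled log2 signal was 9.01, 9.20, 9.05 and 9.15 on arrays labelled non-treated and 9.30, 9.38 and 9.20 on arrays labelled treated. The arrays labelled treated were mostly higher, but non-treated replicate 2 and treated replicate 4 both read 9.20, so the groups just overlapped. The mean was 9.10 ± 0.088 (SD, n = 4) against 9.29 ± 0.090 (n = 3). The log2 change of 0.19 did not pass the test (limma adjusted p = 0.0786), with a 95% interval from −0.0066 to 0.39.

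**Figure D1:**
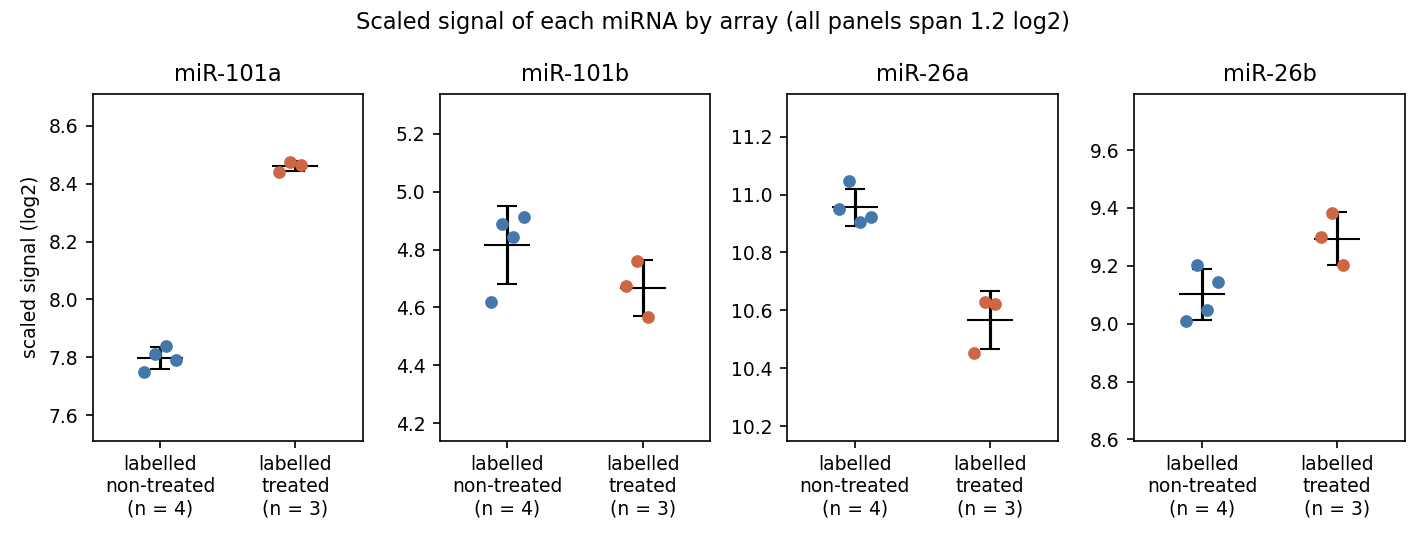
Scaled log2 signal of each miRNA (vertical axis, each panel spanning the same range) on the 4 arrays labelled non-treated (blue) and the 3 labelled treated (orange), with the group mean and SD as bars. miR-101a is higher (7.80 against 8.46) and miR-26a lower (10.96 against 10.57) on every array labelled treated, while the groups of miR-101b and miR-26b overlap; without scaling between arrays all 4 are lower on average.

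So 2 of the 4 miRNAs passed a limma adjusted p of 0.01, 1 in each direction, where 60.6% of the 236 miRNAs tested did. In each direction the share of all miRNAs tested was 25.8% higher and 34.7% lower. The same 2 had groups that did not overlap, as did 71.6% of the miRNAs tested (30.5% with arrays labelled treated higher, 41.1% with them lower). With 4 miRNAs neither count stands out from its background share. By signed change, miR-101a ranked 52 from the highest of the 236, miR-26b 74, miR-101b 121 and miR-26a 150. In exact 2-sided permutation tests over the 35 splits of 3 against 4 arrays, p was 0.0571 for miR-101a and for miR-26a, the smallest this design can give, 0.171 for miR-101b and 0.114 for miR-26b.

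**Figure D2:**
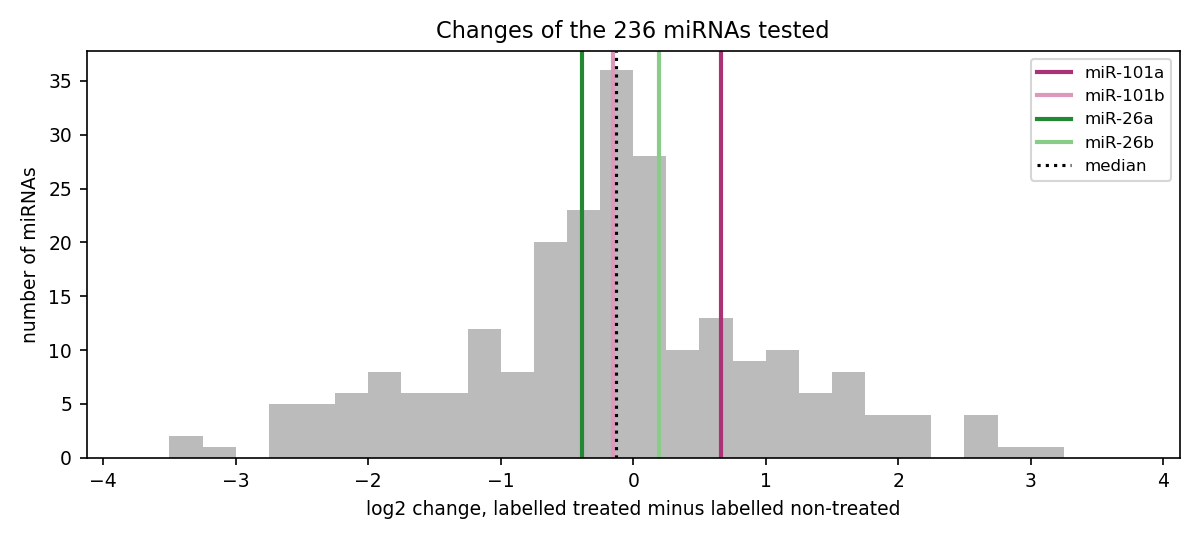
Number of miRNAs (vertical axis) by log2 change between arrays labelled treated and non-treated (horizontal axis, scaled to the mean of the detected miRNAs) for the 236 miRNAs tested, with coloured lines at the 4 miRNAs and a dotted line at the median of −0.13. miR-101b lies next to the median and miR-101a farthest from it, at 0.66, and all 4 lie inside the bulk of the distribution; the zero of this axis moves with the scaling.

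How far each miRNA rose or fell depended on the scaling between arrays. With the 75th percentile of the detected miRNAs in place of their mean, the changes were 0.41 for miR-101a, −0.40 for miR-101b, −0.64 for miR-26a and −0.054 for miR-26b. With the mean of all miRNAs on the array, the closest to the wording of the methods, they were 0.061, −0.75, −0.99 and −0.41. miR-101a then no longer passed, while miR-101b did. This scaling is close to the methods in wording only. The study's list gives miR-101a a change larger in size than any scaling computed here. For most miRNAs matched by name, the list's changes with their sign turned lie above those with the mean of the detected miRNAs. The shift is about the same for most of these, as a single factor per array would give. What set that factor in the study was not identified. With the spike-in probes the changes were 0.14, −0.67, −0.91 and −0.33 in that order, and without scaling −0.49, −1.31, −1.54 and −0.96. miR-101a did not pass with the spike-in probes, and miR-26a (−0.14) did not when arrays were brought to the 75th percentile over the whole array. The median of all miRNAs moved as well, from 0.12 with the 75th percentile of all miRNAs to −1.28 without scaling. A single factor per array moves each miRNA and the median alike, so the place of a miRNA relative to the median can change with quantile normalization but hardly with the others. Relative to the median, miR-101a lay at 0.79 with the mean of the detected miRNAs and at 0.65 with quantile normalization. miR-26a lay at −0.26 and −0.55, and miR-26b at 0.32 and 0.047. miR-101b lay at −0.023 and 0.12 and so changed side.

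**Figure D3:**
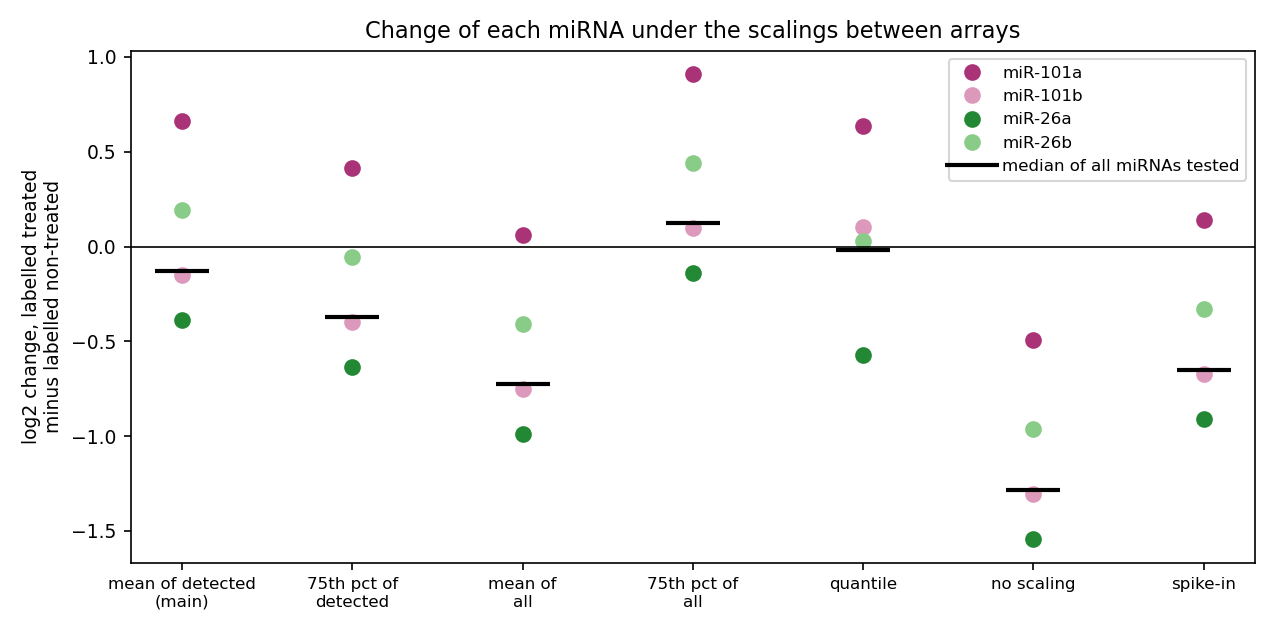
Log2 change between arrays labelled treated and non-treated (vertical axis) of each miRNA under 7 scalings between arrays (horizontal axis), with a black bar at the median of all miRNAs tested. The change of miR-101a runs from 0.91 to −0.49 (no scaling) and the median from 0.12 to −1.28; a single factor per array moves all points of a column together by construction, so that only quantile normalization changes their spacing, with miR-26a at −0.57 there.

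The difference between copies within an array was then compared between the labels, since any single scaling factor of an array cancels in it. A difference of this kind also holds how strongly each probe binds, so its level means little and its change between labels is what was compared. For miR-101a minus miR-101b, the log2 difference was 3.13, 2.92, 2.99 and 2.88 on arrays labelled non-treated and 3.77, 3.71 and 3.90 on arrays labelled treated. Each array labelled treated lay above each array labelled non-treated, so that miR-101a gained on miR-101b by 0.81 ± 0.079 (SE, 95% interval 0.61 to 1.02). How many pairs of other miRNAs separate in this way was not computed, while 71.6% of single miRNAs tested did not overlap. The root mean square distance between the centred patterns of both copies was 0.41, below the median of 0.53 over all pairs of miRNAs.

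For miR-26a minus miR-26b, the log2 difference was 1.94, 1.85, 1.86 and 1.78 on arrays labelled non-treated and 1.15, 1.25 and 1.42 on arrays labelled treated. The groups again did not overlap, in the opposite direction. miR-26a lost on miR-26b, with a change of the difference of −0.58 ± 0.077 (SE, 95% interval −0.78 to −0.38). The share of other pairs that separate was again not computed. The distance between the patterns of miR-26a and miR-26b was 0.30, also below the median of 0.53 over all pairs.

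For the mean of both miR-101 copies minus the mean of both miR-26 copies, the difference was −3.80, −3.77, −3.63 and −3.68 on arrays labelled non-treated and −3.32, −3.39 and −3.40 on arrays labelled treated. The arrays labelled treated were higher throughout, by 0.35 ± 0.049 (SE, 95% interval 0.23 to 0.48), and this was not set against other miRNAs either. For each of these 3 differences the exact 2-sided permutation p was 0.0571, also after Benjamini-Hochberg adjustment over the 3, which is the smallest that 3 against 4 arrays allow and cannot reach 0.05. Correcting the background with an offset, which compresses dim signals, brought the miR-101a minus miR-101b shift to −0.092.

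**Figure D4:**
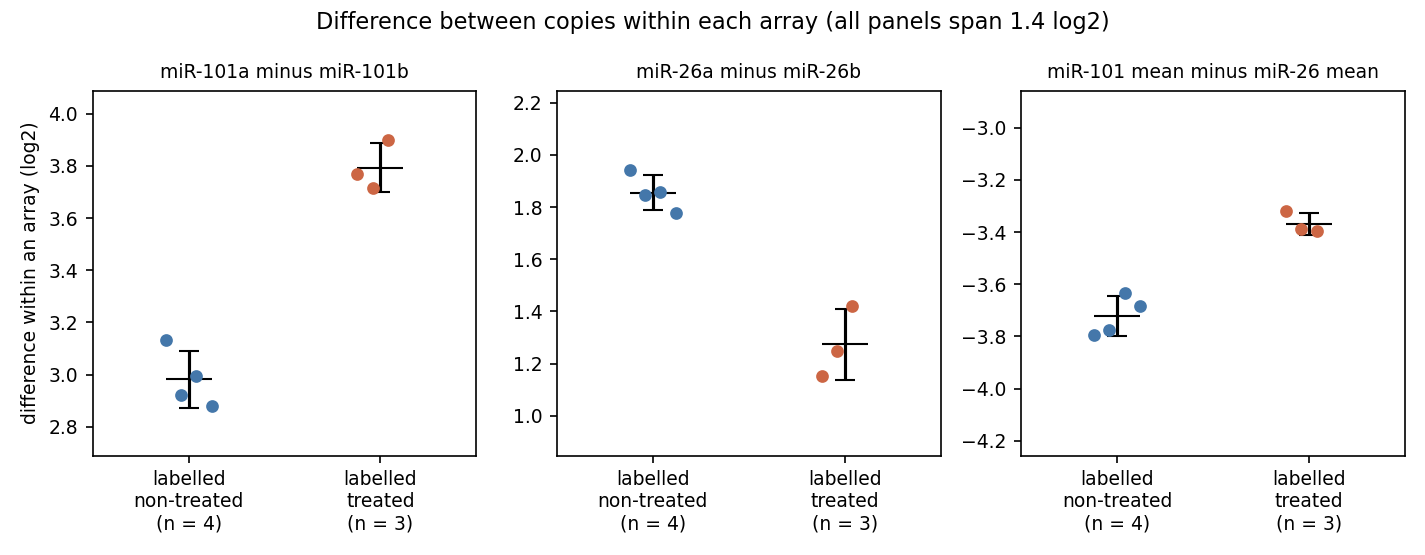
Log2 difference between copies within each array (vertical axis, each panel spanning the same range) for arrays labelled non-treated (blue, n = 4) and treated (orange, n = 3), with the group mean and SD as bars. The miR-101a minus miR-101b difference is 0.81 higher and the miR-26a minus miR-26b difference lower (−0.58) on arrays labelled treated with no overlap. A single scaling factor per array leaves both unchanged, and with median spot signals and a background offset the first is −0.092. How many other pairs also lack overlap was not computed.

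Each miRNA was read by 2 probes of 10 spots each, and both probes of a miRNA changed in the same direction by similar amounts. For miR-101a, probe A_54_P2268 changed by 0.69 ± 0.086 (SE) and probe A_54_P4365 by 0.64 ± 0.080, with limma adjusted p of 6.93e-05 and 7.75e-05. For miR-26a, probe A_54_P2481 changed by −0.34 ± 0.088 and probe A_54_P4384 by −0.41 ± 0.10, with adjusted p of 0.00719 and 0.00493. Both pairs passed, in opposite directions.

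The miR-26b probes A_54_P2483 and A_54_P2484 changed by 0.17 ± 0.11 and 0.21 ± 0.092 (limma adjusted p = 0.176 and 0.0749). The miR-101b probes A_54_P2593 and A_54_P2594 changed by −0.22 ± 0.12 and −0.13 ± 0.12 (limma adjusted p = 0.119 and 0.331). None of these 4 probes passed. In all, 4 of 8 probes passed, where 58.9% of the 421 probes tested did. The higher 2 were those of miR-101a (25.2% of all probes tested were higher) and the lower 2 those of miR-26a (33.7%). The groups of 5 of 8 did not overlap, the fifth being A_54_P2484 of miR-26b, where those of 70.1% of all probes did not (29.9% higher and 40.1% lower on arrays labelled treated). The count of 4 fell to 2 without non-treated replicate 1, 2 or 4 and without treated replicate 1 or 4.

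The changes of both probes of a miRNA were also set against each other. The difference of the changes was 0.055 for miR-101a, −0.089 for miR-101b, 0.074 for miR-26a and −0.031 for miR-26b, with exact permutation p of 0.286, 0.514, 0.457 and 0.743, in a design whose smallest p of 0.0571 could not have called any pair different. The weakest reading was that of miR-101b probe A_54_P2593, whose mean spot intensity was 8.96, 10.5, 5.40 and 9.95 on arrays labelled non-treated and 3.75, 3.72 and 2.44 on arrays labelled treated. It was detected on 6 of 7 arrays and not on treated replicate 4, and its spots varied by up to 68.9% (CV) within an array. The other probe of miR-101b, A_54_P2594, read 29.6, 40.1, 21.5 and 37.5 against 11.9, 17.9 and 9.77, and so carried most of the miR-101b signal.

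**Figure D5:**
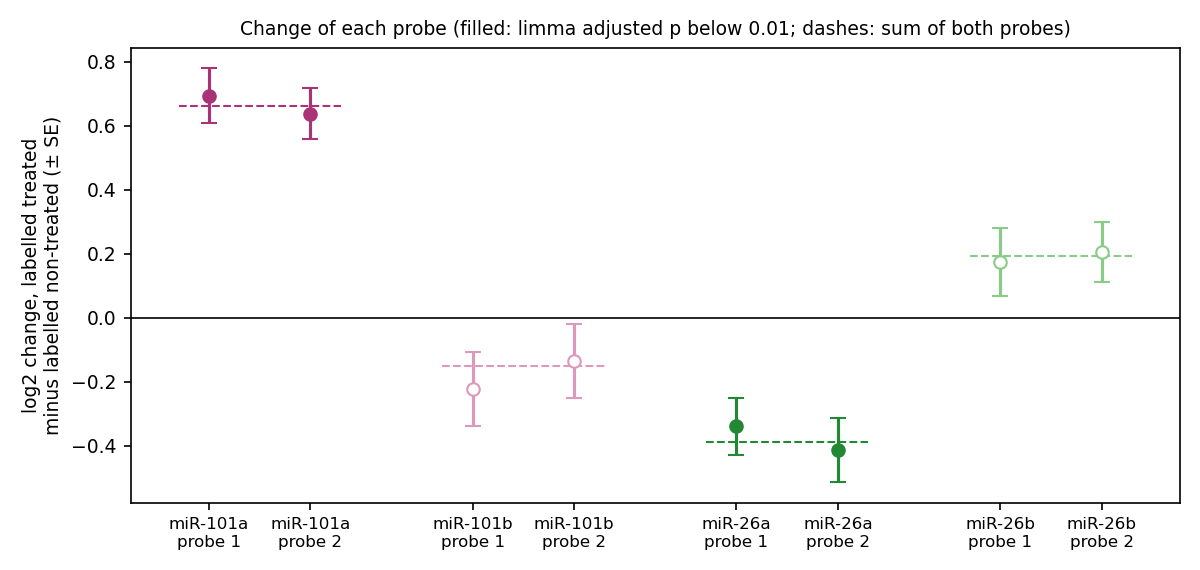
Log2 change between arrays labelled treated and non-treated (vertical axis, ± SE) of the 8 probes, in the order of their identifiers, filled where the limma adjusted p is below 0.01, with a dashed line at the change of the summed miRNA signal. Both probes of a miRNA lie on the same side of 0, from 0.69 and 0.64 for miR-101a to −0.34 and −0.41 for miR-26a; without scaling all 8 are negative.

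The position of an array on the slide did not separate the labels. The upper row held non-treated replicates 1 and 2 with treated replicate 1, and the lower row the other 4 arrays. miR-101a changed by 0.65 within each row and by 0.66 with the row as a block. The upper row has a lone array labelled treated, so its values carry no spread of that group. miR-26a changed by −0.56 within the upper row, −0.29 within the lower and −0.39 with the row as a block, and it did not pass the test within the lower row. miR-101b changed by −0.09 and −0.21 and miR-26b by 0.18 and 0.20. Without non-treated replicate 3, the array that stood apart in brightness, miR-101a changed by 0.65, miR-101b by −0.16, miR-26a by −0.43 and miR-26b by 0.15. The shift between copies was then 0.82 for miR-101a minus miR-101b and −0.58 for miR-26a minus miR-26b.

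Of 6 names listed for the other strand of these hairpins, 2 were on the array. These were miR-101a* and miR-26b*, strands usually discarded, and they were not detected on any of the 7 arrays. The other strands of miR-101b and miR-26a were not on the array under the listed names, so they were not measured.

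The pattern of each miRNA over the 7 arrays was set beside that of 182 other miRNAs detected on all arrays, as the root mean square distance of centred log2 signals. Those nearest miR-101a were let-7g (0.073), miR-221 (0.092) and miR-200a (0.094), which changed by 0.66, 0.81 and 0.83. Those nearest miR-26a were miR-106b (0.058), miR-326 (0.066) and let-7c (0.091), which changed by −0.38, −0.36 and −0.25. For miR-101b they were miR-340-5p (0.075), miR-20a (0.081) and miR-1944 (0.093), and for miR-26b miR-20b (0.076), let-7f (0.090) and miR-148b (0.10).

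The other 3 of the 4 miRNAs were not among those 182 candidates. Within a family the distance was 0.41 between miR-101a and miR-101b and 0.30 between miR-26a and miR-26b. The nearest pairs among the 4 were miR-101b with miR-26a (0.17) and miR-101b with miR-26b (0.18), and the farthest was miR-101a with miR-26a (0.52). The median distance over all pairs of miRNAs was 0.53, just above the farthest of these.

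The other miRNAs reported, in various systems, to repress Polycomb group genes were read from a list of 14. Of these, 10 were tested, while miR-138, miR-124, miR-137 and miR-217 were not detected on enough arrays. On arrays labelled treated, 4 rose (miR-144, miR-200b, miR-30d and miR-218), miR-214 fell and 5 did not pass, so that 5 of 10 passed where 60.6% of all miRNAs tested did (25.8% higher and 34.7% lower). Their median change was 0.18, against −0.13 for all miRNAs tested. Under the 7 scalings, miR-144 was higher and miR-214 lower in each, miR-200b was lower without scaling, and miR-30d and miR-218 were lower in 3. The count of 4 was 2 without non-treated replicate 1 or any of the arrays labelled treated. The study's own list on these samples holds several of these miRNAs, so they are no independent evidence of its direction.

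The changes within that list spanned more than those of miR-101 and miR-26. miR-214, a mesenchymal miRNA that represses Ezh2 in muscle cells, changed from 8.10 ± 0.14 (SD, n = 4) to 5.59 ± 0.078 (n = 3), or −2.51. miR-200b, an epithelial miRNA reported to target the complex subunit Suz12, changed from 9.35 ± 0.21 to 10.25 ± 0.040, or 0.90. miR-30d changed by 0.51 and miR-218 by 0.44, while miR-25 (−0.28, limma adjusted p = 0.0171), miR-200c (−0.12), miR-98 (0.032), miR-203 (0.17) and miR-128 (0.19) did not pass.

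miR-144 is shown because it shares bases 2 to 7 (ACAGUA) with miR-101a and parts from it at base 8 (C8U). It lies at chr11:78073047-78073066 on the plus strand, and 8 of 20 aligned bases are identical to miR-101a.
miR-144: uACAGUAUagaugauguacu
miR-144, a miRNA of red blood cell precursors, was at 4.37 ± 0.51 (SD, n = 4) on arrays labelled non-treated and 6.98 ± 0.11 (n = 3) on arrays labelled treated. Its log2 change of 2.61 was in the direction of that of miR-101a and larger.

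Markers of the cell types that a kidney holds moved with the labels as well. The kidney tubule miRNAs miR-192 and miR-194 changed by 3.24 and 2.92 and miR-204 by −0.56, while miR-215 was not detected on any array, and the summed scaled intensity of the 4 was 244 to 415 on arrays labelled non-treated and 2211 to 2366 on arrays labelled treated. All 5 white blood cell markers were lower, with a sum of 1111 to 1453 against 281 to 304. All 3 fibroblast and mesenchymal markers were lower, with a sum of 2119.95 to 2515 against 395 to 410.3. Both red blood cell markers on the array, of 3 listed, were higher (1079 to 2329 against 4615 to 5118), and both smooth muscle markers were lower (335 to 410.4 against 163 to 195). Neither of the 2 endothelial markers passed (1769 to 1955 against 1779.7 to 1899). The part of these cell types in the changes of miR-101a and miR-26a was not tested.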

How the data were processed

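Total RNA of mouse kidney was hybridised in 1 colour (Cy3) to an Agilent mouse miRNA array, 1 sample per array. The labels name the RecoverAll kit for the extraction, while the study's methods name the miRNeasy kit for tissue. The deposited scanner files hold spot intensities that the authors obtained with Agilent Feature Extraction 10.7.3.1, per the submitters' processing notes, with local background subtracted and outlier spots marked. No spot was saturated. In R 4.3.3, the processed intensity of the spots of each probe was averaged without outlier spots (12 of 560 spots of the 8 probes) and the probe means of a miRNA were summed. The study's methods normalise to the mean of each array. Here each array was scaled by the mean log2 of the 186 miRNAs detected on all arrays (the mean of all miRNAs was an alternative), then floored at the smallest scaled signal of a detected miRNA (1.99) and log2 transformed. A probe counted as detected where Agilent's total signal exceeded 3 times its error. The 236 miRNAs detected on each array of at least 1 group were tested with limma 3.58.1 and Benjamini-Hochberg adjustment at a threshold of 0.01, and 421 probes likewise. With 7 arrays, their number limits the precision.

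The rule for the members uses names and no measured values, but the members and lists were chosen with earlier results of these data known. The named miRNAs were the 4 members, the listed miRNAs on the array, and for each member the 3 miRNAs with the nearest pattern. RefSeq mature names matched 448 of the 696 array names. Scripts were tested on simulated data. The alternatives covered scaling, background, probe choice, filters, floor, test, the deposited table, left-out arrays, the replicate number and the row of the slide.

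The deposited value table repeats the intensity of the first spot of each probe (within a relative tolerance of 1e-05), unscaled and not log transformed, except that the column of treated replicate 4 holds the error estimate of that spot. Its direction is that of the labels.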

Additional observations from a re-analysis of the deposited data

Results flagged for a closer look

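Of 18 sets of 4 arrays labelled non-treated that were checked for an array far from the other 3, 4 held such an array. Chance gives about 5% of independent sets, but these sets share arrays and probes and are not independent. All 4 fell on non-treated replicate 1 or 3, so the count cannot be set against that share. miR-101a probe A_54_P2268 read 6.49 (scaled log2) on non-treated replicate 1 and 6.63 to 6.65 on the other 3. miR-101b probe A_54_P2594 read 4.24 on the same array and 4.52 to 4.57 on the other 3. Over the miRNAs that all arrays detected, the mean log2 level was 6.65 on non-treated replicate 3 and 7.40 to 7.52 on the other 3. The mean log2 signal of the spike-in probes was 11.28 on non-treated replicate 3 and 11.91 to 12.01 on the other 3.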

How the results depend on the processing

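The shift of miR-26a against miR-26b and that between the families kept their direction under each alternative run (−0.74 to −0.26 and 0.25 to 0.82). The exact test could not reach 0.05 under any of them. miR-101a against miR-101b turned only with median spot signals and a background offset. The cause of the changes named here was not tested unless the alternative's construction gives it. With the 75th percentile of the detected miRNAs, miR-26b changed by −0.054 (probes −0.072 and −0.042). With the mean of all miRNAs, miR-101a changed by 0.061 and no longer passed, miR-101b by −0.75 and now passed, and miR-26b by −0.41 (probes −0.43 and −0.40), with 30 miRNAs higher and 131 lower in place of 61 and 82. With the 75th percentile of all miRNAs, miR-101b changed by 0.098 (probes 0.025 and 0.11), miR-26a by −0.14 without passing, and miR-26b by 0.44 and now passed, with 76 higher and 61 lower. With quantile normalization, miR-101b changed by 0.10 (second probe 0.14) and the first probe of miR-26b by −0.014, with 64 higher and 66 lower. Without scaling, the changes were −0.49 for miR-101a (probes −0.46 and −0.52), −1.31 for miR-101b, which passed, and −0.96 for miR-26b (probes −0.98 and −0.95), with 8 higher and 166 lower. With spike-in scaling, miR-101a changed by 0.14 without passing, miR-101b by −0.67 and passed, and miR-26b by −0.33 (probes −0.35 and −0.32), with 39 higher and 151 lower. From the deposited table, which holds 1 spot per probe, miR-101a changed by 0.49 and miR-26a by −0.33, neither passing, and miR-101b by 0.017, with 33 higher and 26 lower; without treated replicate 4, whose column holds error estimates, miR-26a changed by −0.048 and 46 were lower. Another alternative used median spot signals in place of the processed ones, with normexp and an offset of 50, which compresses dim signals by construction. There miR-101a changed by 0.19 without passing, miR-101b by 0.28, miR-26b by −0.26 and miR-101a minus miR-101b by −0.092, with 105 higher and 52 lower. With Bonferroni adjustment, miR-26a (−0.39) no longer passed, 39 were higher, 45 lower and 1 of the 8 probes passed; with no detection filter, 2 probes passed. By the methods' t-test, 56 were higher and 84 lower at the threshold of 0.01, and 55 and 71 after Benjamini-Hochberg adjustment.

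Leaving out each array in turn gave 0.65 to 0.69 for miR-101a, −0.22 to −0.073 for miR-101b, −0.43 to −0.33 for miR-26a, 0.15 to 0.27 for miR-26b, and 2 to 4 probes past the threshold. The replicate numbers did not pair the samples (correlations of deviations of −0.00057, −0.022 and 0.19 for numbers 1, 3 and 4), and not every array correlated best with its own number. With the replicate number as a block, on the 6 arrays that share numbers, miR-26a changed by −0.36 and did not pass, 2 probes passed, and 56 miRNAs were higher and 71 lower; no other call of the 4 miRNAs changed. Of the alternatives chosen after seeing the data, within the upper row of the slide miR-101a (0.65) and miR-26a (−0.56) did not pass, the first probe of miR-101b changed by 0.034, 9 miRNAs were higher and 15 lower and 0 probes passed, with 3 arrays in the fit and a lone array labelled treated that is assumed to vary like the others; within the lower row miR-26a (−0.29) did not pass, 51 were lower and 2 probes passed. Using all spots, or a floor of 6.71, changed no call of the 4 miRNAs. Signal over background limits miR-101b most, since 1 of its probes was not detected on treated replicate 4.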

Other observations

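In the deposited value table, the median of the column was 0.445, 0.532, 0.470 and 0.346 for non-treated replicates 1 to 4, 0.322 for treated replicate 1 and 0.276 for treated replicate 3. It was 1.001 for treated replicate 4, whose column holds error estimates of the spots for all 1937 probes.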
